A study of Mus musculus with 4 samples.

Results

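The genes described here are 51 genes of the endoplasmic reticulum (ER): chaperones and disulfide isomerases, the stress sensors and their transcription factors, and the machinery that brings proteins into the ER, degrades misfolded ones and exports folded ones. The list was given by gene symbol, by a rule that names pathway genes and no measured value, although it was drawn up with earlier results of these data known. All 51 members were found among the 18872 genes listed over the 4 libraries. Ero1l is named Ero1a in the current RefSeq table and was matched through its older name. RNA came from mouse primary colon epithelial cells, in 2 libraries from wild-type animals and 2 from animals labelled EZH2-IEC-/-, a knockout of Ezh2 in intestinal epithelium (Ezh2 is the enzyme by which PRC2 methylates histone H3). All 4 libraries came from mice given 2% DSS (dextran sulfate sodium, which damages the mucosa) for 3 days, so each difference below is one between genotypes under DSS. Untreated mice were not analysed here. Strain, age and Cre driver, and whether each library is its own mouse, were not stated in the labels. P-values therefore measure only how these libraries vary, and that variation may be technical.

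Secreted and membrane proteins enter the ER through the Sec61 channel, fold there with the help of chaperones and disulfide isomerases, and leave in COPII vesicles. When unfolded proteins accumulate, 3 sensors respond: ATF6 and IRE1, the latter through splicing of Xbp1 mRNA, switch on chaperone, translocation and degradation genes, while PERK slows translation and switches on Atf4, which acts on amino acid metabolism genes and on Ddit3 (CHOP), a factor linked to cell death. The colon epithelium holds goblet cells, which secrete mucins in bulk and depend on this machinery.

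Depth was alike in the 4 libraries, with 5037367 to 5446998 estimated counts each. Differences are given as log2 of knockout over wild type ± standard error, and a gene is called at an adjusted p under 0.05 (edgeR's quasi-likelihood test, Benjamini-Hochberg over all 13608 tested genes). Fold differences come from the same fit on scaled counts, so they are not the ratios of the FPKM values printed beside them. Of those genes 43.7% were called, 23.0% as higher and 20.8% as lower in the knockout. Higher genes made up 52.5% of the calls with the scaling used here (TMM) and 42.4% with library totals alone, which moved the median of all genes from -0.002 to -0.103. Ezh2 itself had 105 and 102 counts in the wild-type pair against 86 and 83 (-0.27 ± 0.17, adjusted p = 0.217), and was not called. A gene-level count cannot check a deletion of single exons. Of 10 epithelial markers 6 were called higher and 3 lower, and their summed FPKM was 12054 and 12441 in wild type, then 13350.4 and 13900.2. Krt8 and Krt20 rose by 0.30 and 1.25, and Epcam and Cdh1 fell by 0.27 and 0.60.

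Almost the whole list was higher in the knockout. Of the 50 members that passed the filter on low counts, 45 rose, 1 fell and 4 were not called, against 23.0% of all genes called higher and 20.8% called lower. Their median log2 fold change was 0.93, a 1.90-fold difference, beside -0.002 for all tested genes. A rise of at least 1 on the log2 scale was seen for 23 members, and 6.90% of all tested genes were called with a rise of that size. Trib3, the remaining member, had too few counts for the test. On FPKM (counts per kilobase of transcript and depth), the wild-type and knockout libraries overlapped for Ppp1r15a. Separation of 2 libraries from 2 is a weak criterion, and it also held for Atf6, Ddit3 and Sel1l, which were not called. Its share over all genes was not computed, so it is not read as a result about the members. Together the 51 genes took 0.713% and 0.702% of the counts in wild type and 1.51% and 1.32% in knockout. Of the 46 called members, 40 were tested and called in all 13 alternative analyses. Chac1 and Eif2ak3 were each dropped before testing in 1 of them and called in the others, and Dnajb9, Ern1, Derl1 and Srp14 lost their call in at least 1. The plot of FPKM by library shows every member.

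**Figure D1:**
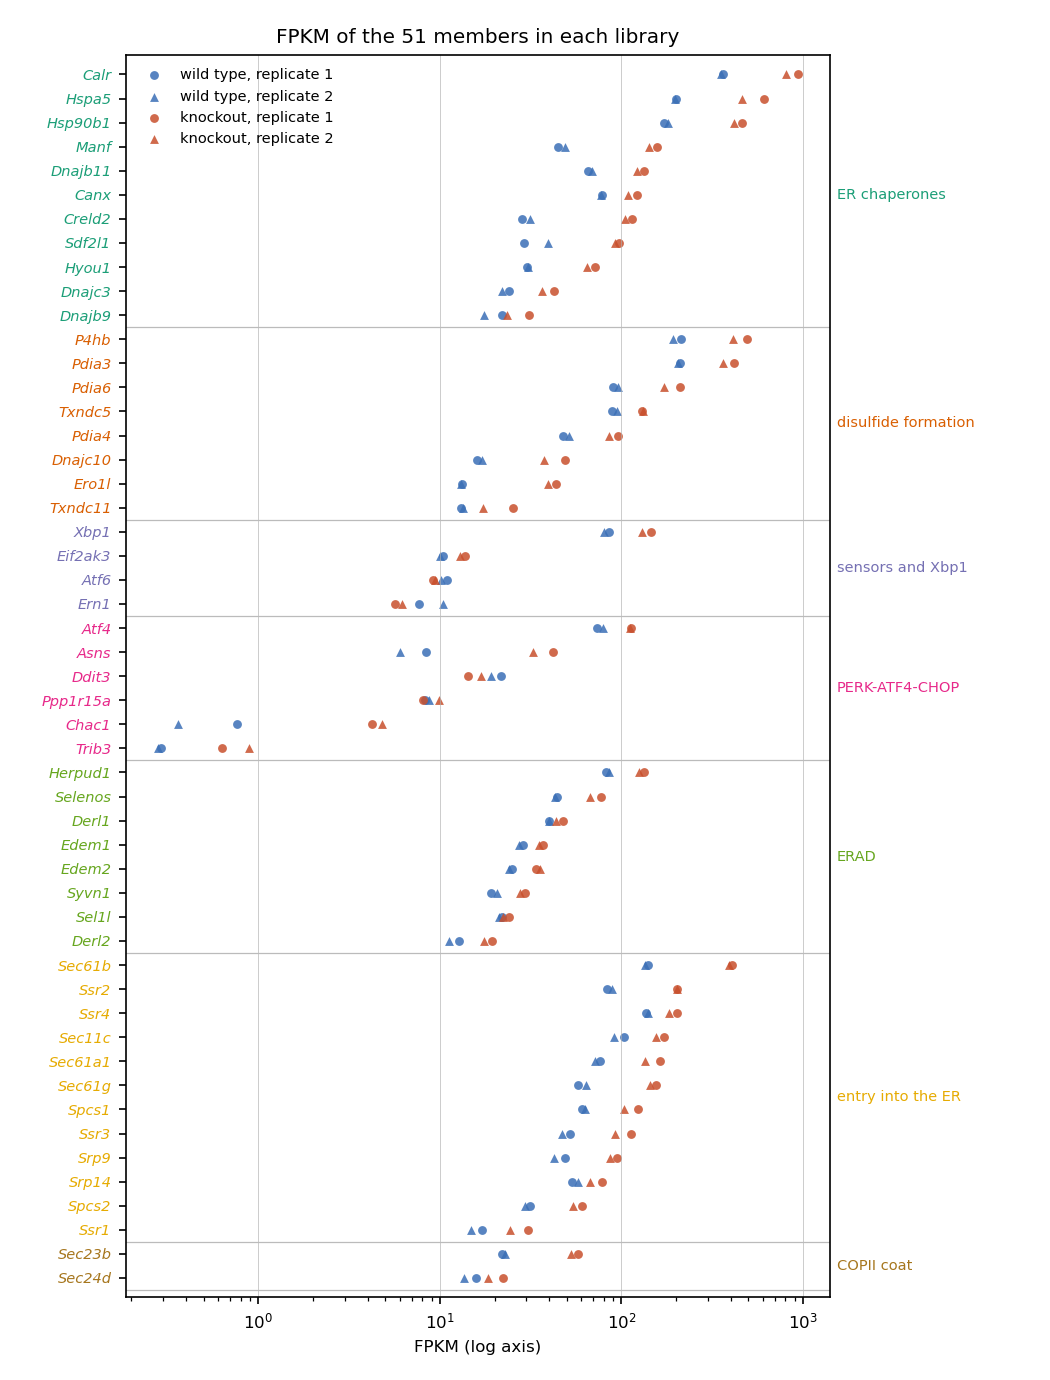
FPKM of each of the 51 members (log axis) in the 4 libraries, blue for wild type and red for knockout, circles for replicate 1 and triangles for replicate 2, ordered within each role by the knockout mean. Red symbols lie to the right of blue ones for most members, and to the left for Ern1, Atf6 and Ddit3.

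All 11 ER chaperones and co-chaperones rose, with a median log2 fold change of 1.38. Hspa5 (BiP, Entrez gene 14828), the Hsp70 of the ER that binds unfolded chains and holds the stress sensors inactive, stood at 199 and 197 FPKM in wild type against 607 and 464 in knockout. Both knockout libraries were far above both wild-type ones, and they also differed from each other. Its log2 fold change was 1.54 ± 0.12 (adjusted p = 1.61e-05). Hsp90b1 (GRP94), the Hsp90 of the ER, went from 173 and 182 to 463 and 417 FPKM (1.41 ± 0.08, adjusted p = 2.93e-06). Calr, a lectin chaperone of glycoproteins, was the most abundant member in both groups, at 364 and 353 FPKM in wild type against 934 and 804 in knockout (1.38 ± 0.09, adjusted p = 4.61e-06). Its membrane-bound partner Canx rose less, from 78.1 and 77.1 to 121 and 108 FPKM (0.67 ± 0.08).

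The largest rises in this group were in genes of small soluble ER proteins. Creld2, an ER stress-inducible protein with EGF-like domains, stood at 28.5 and 31.4 FPKM in wild type against 115 and 105 in knockout, a 3.94-fold difference (1.98 ± 0.10, adjusted p = 1.72e-06). Manf, a BiP-binding protein that is also secreted, went from 44.8 and 49.1 to 156 and 141 FPKM (1.77 ± 0.10, adjusted p = 2.22e-06). Sdf2l1, a partner of the BiP co-chaperone Dnajb11, went from 29.0 and 39.2 to 97.2 and 91.7 FPKM (1.57 ± 0.14). In each of these genes the groups were separated by more than the gap between replicates. Hyou1, a large Hsp70-like protein that recharges BiP with ATP, went from 30.4 and 30.7 to 71.9 and 65.0 FPKM (1.27 ± 0.09, adjusted p = 9.56e-06). The J-domain co-chaperones of BiP rose by less: Dnajb11 by 1.04 and Dnajc3 by 0.88. Dnajb9, another J-domain protein and a known XBP1 target, had the smallest change, from 22.1 and 17.4 to 30.8 and 23.4 FPKM (0.56 ± 0.17, adjusted p = 0.0229). That call was lost in 5 alternatives, among them those without wild-type replicate 2 (0.40, adjusted p = 0.0973) and without knockout replicate 1 (0.34, adjusted p = 0.134), and over all alternatives its adjusted p reached at most 0.134.

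**Figure D2:**
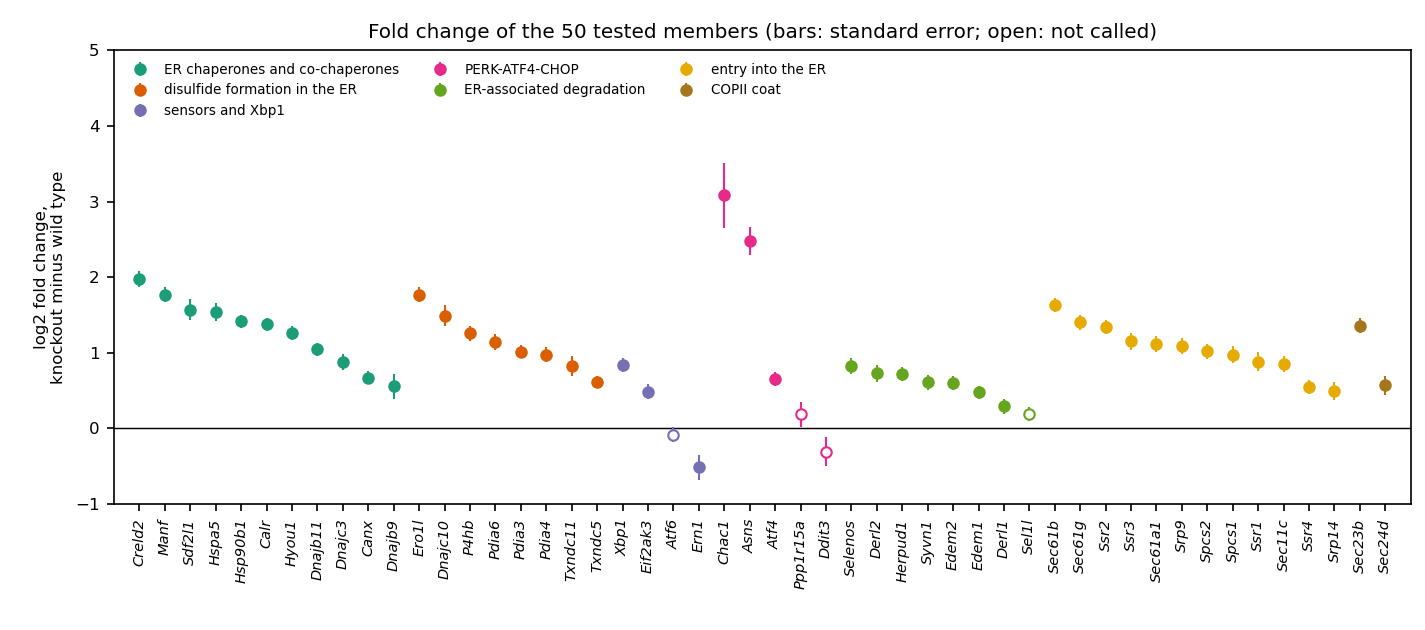
Log2 fold change (knockout minus wild type) of the 50 tested members, grouped and coloured by role, with bars for the standard error and open symbols for members not called. The chaperone, disulfide and translocation genes all lie above 0, while sensors and PERK-ATF4-CHOP genes spread from -0.52 to 3.08.

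The ER stress response element (ERSE), a CCAAT box and a CCACG box separated by 9 bases, is the textbook binding site of ATF6 with NF-Y. The exact letters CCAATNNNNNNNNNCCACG were searched on both strands of RefSeq promoter windows (build GRCm38.p6, 250 bases before to 50 after each start), which were held for 44 of the 51 members. The match was found in 8 of these 44 members (18.2%) and in 37 of all 27025 genes with a window (0.137%). It was found in 7 of the 14 chaperone-arm genes with a window and in none of the 6 genes of the PERK-ATF4-CHOP group. The matches of 7 genes are shown because they stand in chaperone genes that rose, or in the degradation gene Syvn1, and capitals mark the match, which reads as the reverse complement where CGTGG comes before ATTGG. Each is given 5′ to 3′ on the strand of its gene.

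Hspa5, chr2:34772010-34772058, plus strand: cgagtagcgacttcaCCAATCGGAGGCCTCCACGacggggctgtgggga
Calr, chr8:84847060-84847108, minus strand: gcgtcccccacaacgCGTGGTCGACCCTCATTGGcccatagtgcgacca
Canx, chr11:50325785-50325833, minus strand: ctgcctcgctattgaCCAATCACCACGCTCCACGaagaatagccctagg
Dnajc3, chr14:118937812-118937860, plus strand: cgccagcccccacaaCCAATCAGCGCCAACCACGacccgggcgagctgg
Creld2, chr15:88819505-88819553, plus strand: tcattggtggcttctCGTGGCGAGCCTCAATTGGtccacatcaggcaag
Pdia6, chr12:17266476-17266524, plus strand: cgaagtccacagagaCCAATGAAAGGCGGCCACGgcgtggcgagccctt
Syvn1, chr19:6046517-6046565, plus strand: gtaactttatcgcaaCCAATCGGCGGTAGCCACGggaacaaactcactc

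In these promoters the element begins between 44 bases (Syvn1) and 162 bases (Calr) before the annotated start, and 65 bases before that of Hspa5. Hsp90b1 holds 2 matches, the farther one beginning 212 bases before its start. A second form, ERSE-II (ATTGGNCCACG, whose ATTGG is the reverse complement of CCAAT), was matched in Dnajb11 and Herpud1, and in 12 of the 27025 genes (0.0444%). No member held both forms. The 10 members with either form all rose, with a median log2 fold change of 1.09 and a range from 0.61 to 1.98. Of the 33 tested members with a window and neither form, 29 rose. Their median was 0.84 and their range from -0.52 to 3.08. Creld2, with the largest rise among the chaperones, and Canx, with 1 of the smallest, both hold the element. These ranges overlap, and the difference between them was not tested. A match of letters is a description and shows no binding.

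All 8 genes of disulfide formation rose, with a median of 1.08. Ero1l, the oxidase that recharges the isomerases and passes electrons to oxygen, had the largest change, from 13.3 and 13.0 FPKM in wild type to 43.6 and 39.6 in knockout, 3.40-fold (1.77 ± 0.10, adjusted p = 2.36e-06). P4hb, the archetypal protein disulfide isomerase and also a subunit of collagen prolyl hydroxylase, went from 214 and 192 to 492 and 412 FPKM (1.26 ± 0.10, adjusted p = 2.1e-05). Dnajc10, which reduces disulfides of proteins bound for degradation, went from 15.97 and 17.0 to 49.0 and 37.6 FPKM (1.49 ± 0.13). In all 3 genes the lower knockout library was above the higher wild-type one. Pdia3 (ERp57), the isomerase that works with calreticulin and calnexin, went from 210.1 and 206 to 419 and 364 FPKM (1.013 ± 0.09). Pdia6 went from 90.1 and 95.6 to 211 and 171 FPKM (1.14 ± 0.11) and Pdia4 from 47.8 and 51.7 to 96.2 and 85.9 FPKM (0.97 ± 0.10). The thioredoxin-domain genes Txndc11 and Txndc5 rose by 0.82 and 0.62. Oxidase and isomerases thus moved in the same direction.

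Of the sensor genes, Eif2ak3 rose, Ern1 fell and Atf6 was not called, and Xbp1 rose. Atf6, which encodes the membrane-bound transcription factor, stood at 10.95 and 10.1 FPKM in wild type against 9.13 and 9.41 in knockout (-0.08 ± 0.10, adjusted p = 0.515), and was not called. Ern1, which encodes IRE1, stood at 7.72 and 10.4 FPKM in wild type against 5.63 and 6.17 in knockout. It was the 1 member called lower (-0.52 ± 0.17, adjusted p = 0.0341). Its wild-type libraries were further apart than its knockout libraries, and the call was lost without wild-type replicate 2 (-0.28, adjusted p = 0.291), without knockout replicate 1 (-0.46, adjusted p = 0.0826), with no filter (adjusted p = 0.0608) and with DESeq2 (adjusted p = 0.0917), within a range up to 0.291 over all alternatives. Eif2ak3, which encodes PERK, rose from 10.5 and 10.0 to 13.8 and 12.9 FPKM (0.49 ± 0.10, adjusted p = 0.00438), and is the 1 member whose transcript lists differ between the replicate 1 and replicate 2 files. Xbp1, the target of IRE1, rose from 85.3 and 80.0 to 145 and 130 FPKM (0.84 ± 0.09, adjusted p = 0.00012). The files give 1 value per gene, so spliced and unspliced Xbp1 mRNA cannot be told apart, and neither can cleaved ATF6 or phosphorylated PERK.

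Of the PERK-ATF4-CHOP genes, Asns, Chac1 and Atf4 rose, and Ddit3 and Ppp1r15a were not called. Asns, asparagine synthetase and a textbook ATF4 target, stood at 8.35 and 6.05 FPKM in wild type against 42.0 and 32.5 in knockout, 5.55-fold higher (2.47 ± 0.19, adjusted p = 1.33e-05). Chac1, a glutathione-degrading enzyme induced through ATF4, had 6 and 3 counts in the wild-type libraries, then 36 and 41. From 9 summed counts against 77, its ratio scaled to library size was 8.69 with an exact Clopper-Pearson 95% interval of 4.35 to 19.7, which covers counting error only (edgeR 3.08 ± 0.43, adjusted p = 0.000472). Both genes were well separated between groups. Atf4 mRNA itself rose from 73.4 and 79.4 to 113 and 112 FPKM (0.66 ± 0.09, adjusted p = 0.00045). Trib3, a pseudokinase induced by ATF4 and CHOP, had 3 and 3 counts, then 7 and 10. Its scaled ratio was 2.88 (interval 1.08 to 8.92), and it was too low to test.

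Ddit3, which encodes CHOP, stood at 21.9 and 19.2 FPKM in wild type against 14.4 and 16.9 in knockout (-0.31 ± 0.19, adjusted p = 0.227). Both knockout values were below both wild-type values, by less than the test could call. Ppp1r15a (GADD34), the phosphatase subunit that reverses the PERK signal, stood at 8.28 and 8.69 FPKM in wild type against 8.11 and 9.91 in knockout (0.19 ± 0.17, adjusted p = 0.391), and its groups overlapped.

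The textbook ATF4 site of amino acid response genes was searched as TGATGNAA on both strands of the same windows. It was found in 3 of the 6 PERK-ATF4-CHOP genes and in 1219 of all 27025 genes (4.51%). It was matched in Asns, Chac1 and Trib3, the members of the group that encode metabolic enzymes or the pseudokinase. No match was found in the windows of Atf4, Ddit3 or Ppp1r15a. The windows reach only 250 bases before each start, so sites farther away were not searched. The matches in Asns and Chac1 are shown because these 2 genes had the largest rises of the list. Herpud1, which holds this site and ERSE-II in 1 promoter, is shown with both. Capitals mark the match, on either strand.

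Asns, chr6:7693210-7693247, minus strand: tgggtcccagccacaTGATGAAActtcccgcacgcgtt
Chac1, chr2:119351034-119351071, plus strand: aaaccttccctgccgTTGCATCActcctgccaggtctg
Herpud1, ATF4 site, chr8:94386302-94386339, plus strand: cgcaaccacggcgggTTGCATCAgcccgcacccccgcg
Herpud1, ERSE-II, chr8:94386362-94386402, plus strand: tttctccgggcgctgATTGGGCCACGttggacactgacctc

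Set side by side, all 16 genes of the ATF6/XBP1 chaperone arm rose, within a range from 0.56 to 1.98 and with a median of 1.26. Of the PERK-ATF4-CHOP arm, 3 of 5 tested genes rose, and the arm ranged from -0.31 to 3.08 with a median of 0.66. The medians differed by 0.60. Because the second arm is short, this difference moved to 0.19 with no filter, which adds Trib3, and to 0.84 with a mean FPKM of at least 5, which drops Chac1. The difference between the arms was not tested, since the members were chosen with earlier results of these data known. The arms also differed in level: summed FPKM of the chaperone arm was 1637 and 1630.2 in wild type against 4037 and 3449 in knockout, and that of the PERK-ATF4-CHOP arm 113 and 114, then 182 and 177. For each 100 FPKM of Hspa5 there were 10.99 and 9.72 FPKM of Ddit3 in wild type against 2.37 and 3.65 in knockout. Ddit3 had the lowest change of its arm and was not called, while Asns rose by more than Hspa5 (2.47 against 1.54). For each 100 FPKM of Xbp1 there were 86.1 and 99.3 FPKM of Atf4 in wild type against 77.8 and 85.6 in knockout.

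**Figure D3:**
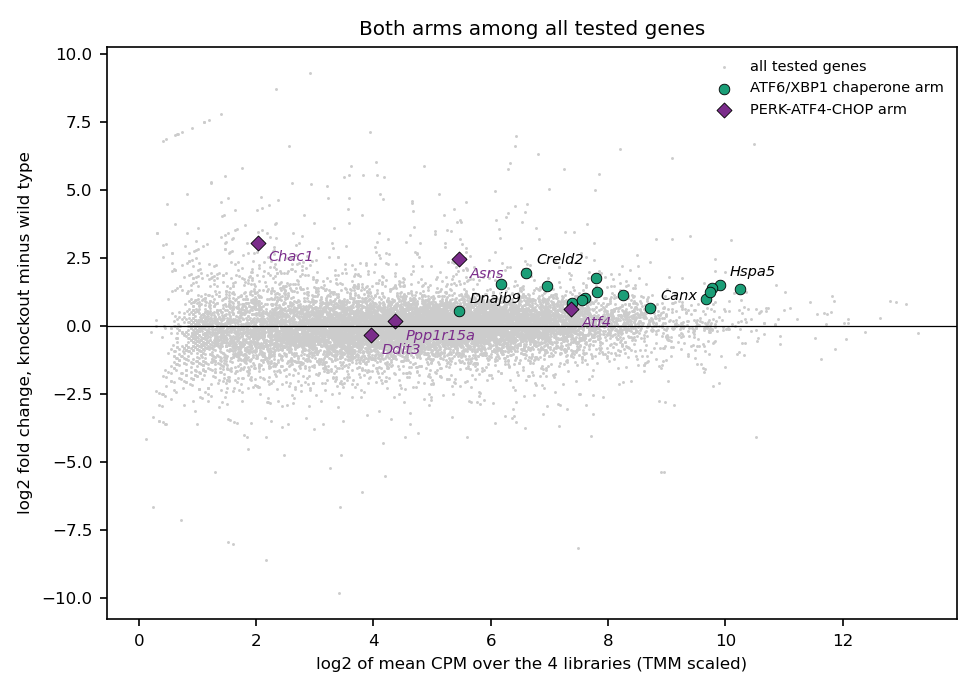
Log2 fold change (knockout minus wild type) against log2 of mean CPM for all 13608 tested genes in grey, with the 16 chaperone-arm genes as green circles and the 5 tested PERK-ATF4-CHOP genes as purple diamonds. The green circles all lie above 0, between 0.56 and 1.98, while the purple diamonds reach from Ddit3 at -0.31 to Chac1 at 3.08.

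Genes of ER-associated degradation, which returns misfolded proteins to the cytosol for the proteasome, rose in 7 of 8 cases, with a median of 0.60. Herpud1, a scaffold of the HRD1 ubiquitin ligase complex, went from 82.7 and 85.2 to 133 and 124 FPKM (0.72 ± 0.09, adjusted p = 0.000239). Selenos, a selenoprotein that recruits the p97 ATPase, went from 44.3 and 43.2 to 76.9 and 67.3 FPKM (0.82 ± 0.10). Groups were clear of each other in both. Syvn1, the ligase HRD1, went from 19.2 and 20.5 to 29.4 and 27.6 FPKM (0.61 ± 0.10), and Derl2, a derlin of the channel, from 12.7 and 11.3 to 19.4 and 17.6 FPKM (0.73 ± 0.11). Edem2 and Edem1 trim mannose from misfolded glycoproteins. Edem2 went from 24.9 and 24.2 to 33.6 and 35.4 FPKM (0.60 ± 0.09), and Edem1 from 28.6 and 27.2 to 37.1 and 35.3 FPKM (0.48 ± 0.09). Sel1l, the adaptor of HRD1, stood at 22.1 and 21.2 FPKM in wild type against 24.0 and 22.2 in knockout (0.20 ± 0.09, adjusted p = 0.116), not called, although it passed with the replicate number as a block (adjusted p = 0.0184). Derl1, at 40.1 and 40.0 and then 47.8 and 43.5 FPKM, was called (0.29 ± 0.09, adjusted p = 0.033), but lost its call in 8 alternatives. Those include DESeq2 and the fits without wild-type replicate 1, wild-type replicate 2 or knockout replicate 1 (adjusted p = 0.118, 0.105 and 0.152), the last being the highest over all alternatives.

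All 12 members for entry into the ER rose, with a median of 1.06. The signal recognition particle brings ribosomes to the Sec61 channel, the TRAP complex (Ssr1 to Ssr4) assists, and signal peptidase cuts the leader. Sec61b, a small subunit of the channel, had the largest change, from 140.2 and 134 to 405 and 390.2 FPKM, 3.11-fold (1.64 ± 0.09, adjusted p = 2.4e-06). Sec61g, the other small subunit, went from 57.5 and 63.7 to 154 and 144 FPKM (1.40 ± 0.10), and the pore subunit Sec61a1 from 76.4 and 71.9 to 164 and 135 FPKM (1.11 ± 0.10). These 3 channel subunits were higher in both knockout libraries, while Sec61a2, a second pore subunit outside the list, was not called (0.01, adjusted p = 0.973). Ssr2 went from 83.3 and 88.6 to 203 and 202 FPKM (1.34 ± 0.09, adjusted p = 6.57e-06). Ssr3 and Ssr1 rose by 1.15 and 0.88, and Ssr4, the most abundant subunit in wild type at 136 and 139.9 FPKM, by 0.55. Differences between the TRAP subunits were not tested.

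The signal peptidase subunits Spcs2, Spcs1 and Sec11c, the last a catalytic one, rose by 1.02, 0.98 and 0.85. Spcs2 went from 31.4 and 29.3 to 60.4 and 54.4 FPKM. Of the signal recognition particle, Srp9 went from 49.0 and 42.4 to 95.2 and 86.6 FPKM (1.09 ± 0.11). Its partner Srp14 went from 53.5 and 57.5 to 78.6 and 67.4 FPKM (0.50 ± 0.12, adjusted p = 0.00853), a call lost without knockout replicate 1 (0.37, adjusted p = 0.0596, the highest over all alternatives). Counts of Sec61g and Ssr1 were not whole in every library, so reads of these genes may have been shared with other copies. The other 49 members had whole counts throughout.

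Both coat members rose. Sec23b, an inner COPII coat subunit, went from 22.0 and 22.8 to 57.5 and 52.8 FPKM (1.36 ± 0.10, adjusted p = 1.19e-05). Its partner Sec24d, which selects cargo, went from 15.9 and 13.6 to 22.3 and 18.5 FPKM (0.57 ± 0.12, adjusted p = 0.00541). The groups did not overlap in either gene.

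Genes of the same pathway outside the 51 were compared from a wider list of 155, of which 150 were tested. Of these, 86 rose and 6 fell, with a median of 0.41, again beside 23.0% and 20.8% over all genes. The plot of calls per list sets the groups side by side. Among folding enzymes, 13 rose and 1 fell of 23 tested. Agr2, a disulfide isomerase of goblet cells needed for mucin, went from 591 and 529 to 1724 and 1390.1 FPKM (1.58 ± 0.11, adjusted p = 9.41e-06), which is above every member on that scale. Fkbp11, a prolyl isomerase of secretory cells, went from 5.62 and 4.42 to 39.3 and 32.6 FPKM (2.94 ± 0.22), the largest change of the wider list. Ppib, the cyclophilin of the ER, and Pdia5 rose by 0.70 and 0.71, and the sulfhydryl oxidase Qsox1 fell by 0.44.

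In the oligosaccharyltransferase and glycan trimming list 12 of 20 genes rose and the others were not called. The transferase subunits Ostc, Rpn2 and Rpn1 rose by 1.36, 0.85 and 0.98, and Dpagt1, which starts the glycan precursor, by 1.02. Of 14 further genes for entry into the ER 10 rose, with the smallest p for Srp19, Tram1, Spcs3 and Srprb, at log2 fold changes of 1.12, 0.72, 0.82 and 0.54. Of 22 tested COPII and export genes 14 rose, among them the cargo receptor pair Mcfd2 and Lman1 (1.16 and 0.89), Tmed9 (0.96) and Surf4 (0.83). Of 14 COPI retrieval genes 10 rose, including Arf1 (0.84), Copz1 (0.66), Arcn1 (0.61) and the KDEL receptor Kdelr3 (1.60), which returns escaped chaperones to the ER. Of 18 further degradation genes 9 rose. The p97 ATPase Vcp went from 98.96 and 97.5 to 209 and 186 FPKM (1.11 ± 0.08), and its cofactor Nploc4 and the selenoprotein Selenok rose by 0.72 and 0.63.

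**Figure D4:**
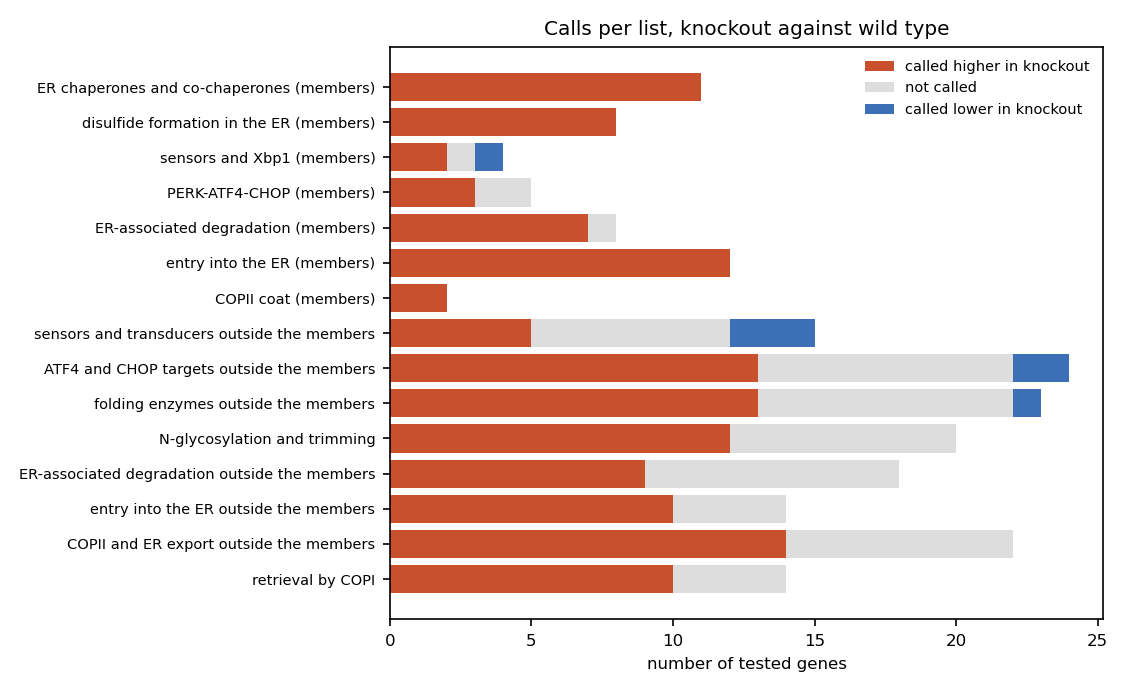
Number of tested genes per list that were called higher (red), not called (grey) or called lower (blue) in the knockout, with the 7 member lists above the 8 lists of pathway genes outside the members. Bars of the chaperone, disulfide, entry and coat members are red throughout, while blue appears in the lists of sensors, ATF4 and CHOP targets and folding enzymes.

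Sensors and transducers outside the members had 5 higher and 3 lower of 15, beside 23.0% and 20.8% of all tested genes. Counts this near those shares are not read as a trait of the list. Creb3, an ATF6-like membrane factor, rose by 0.92, while Creb3l1, a related factor, fell from 77.5 and 83.9 to 44.1 and 44.5 FPKM (-0.76 ± 0.09). Mbtps1, the protease that makes the first cut in ATF6, fell from 33.5 and 29.9 to 19.4 and 20.0 FPKM (-0.58 ± 0.10). Eif2s1, the subunit of the translation factor that PERK phosphorylates, rose by 0.73. Ern2, the gut form of IRE1, stood at 31.7 and 34.4 FPKM in wild type against 24.1 and 27.2 in knockout (-0.26 ± 0.10, adjusted p = 0.0700). It was not called, its transcript lists differ between files, and in both groups it stood above Ern1 on the FPKM scale. Further ATF4 and CHOP targets had 13 higher and 2 lower of 24 tested. The serine synthesis genes Phgdh and Psat1 rose by 2.01 and 1.97 and the mitochondrial folate enzyme Mthfd2 by 2.03. The cystine transporter Slc7a11 went from 18.03 and 18.1 to 36.2 and 32.9 FPKM (1.04 ± 0.09, adjusted p = 2.73e-05). Eif4ebp1, a translation repressor, rose by 1.498 and Atf3 by 1.14, from 39.9 and 34.0 to 78.7 and 72.7 FPKM. The transaminase Gpt2 fell by 1.71 and Cth, which makes cysteine, by 1.09. Sesn2, Ddit4 and Bbc3 were not called, at -0.63, 0.20 and -0.27.

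Markers of other secretory cells were read beside these values. Fewer cells of a type and less RNA per cell cannot be told apart in bulk samples. Of 14 goblet cell markers 4 rose and 5 fell, and their summed FPKM was 7943 and 8630 in wild type against 6191 and 7201 in knockout. Muc2 and Spdef, the main mucin and a secretory lineage factor, rose by 0.54 and 1.24, and Clca1 and Best2 fell by 1.21 and 2.76. Clca1 went from 1596 and 1515 to 662 and 594 FPKM. Zg16 went from 2727 and 3114 to 1696 and 2355 FPKM (-0.43 ± 0.14, adjusted p = 0.0325). Both weigh heavily in the difference in the sum. Of 11 tested B and plasma cell markers 4 rose and 4 fell, with summed FPKM of 324 and 308 in wild type against 358 and 441 in knockout. Jchain went from 134 and 114 to 197 and 249.4 FPKM, Mzb1 from 13.6 and 11.6 to 30.8 and 42.4, and Derl3, a degradation gene of plasma cells, from 0.90 and 2.31 to 4.47 and 8.04 (2.04 ± 0.46, adjusted p = 0.00668). These 3 were highest in knockout replicate 2. Depth-scaled counts were higher in knockout replicate 1 than in replicate 2 for 43 of 50 tested members, beside 49.9% of all tested genes. Between the wild-type libraries, replicate 1 was the higher for 28 of 50, beside 49.6% of all tested genes. This compares single libraries, and its relation to the marker genes was not tested.

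Of the remaining marker lists, 8 of 10 macrophage and dendritic cell genes rose (summed FPKM 345 and 365, then 491 and 541). All 8 tested T and NK cell genes rose (11.4 and 10.96, then 71.5 and 67.0), while Trac was not analysed here. Of 5 tested neutrophil genes 3 rose, Mpo and Elane were not analysed here, and no summed level is compared because Ly6g has values in the replicate 2 files alone. Genes of fibroblasts and smooth muscle fell in 9 of 10 cases (2335 and 2515, then 1051 and 1347). Of 10 immediate-early genes, which tissue handling can induce, 6 rose and 2 fell (417 and 442, then 465 and 505). Atf3, counted above among the ATF4 and CHOP targets, is 1 of these 6. The part of these cells and of handling in the changes of the members was not tested.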

How the data were processed

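Per the file headers, the authors deposited 1 table per library. For each gene it lists transcripts, lengths, expected counts and FPKM. Expected counts are estimated counts, of which 78.8% to 80.2% were exactly whole as deposited. The deposited FPKM values are scaled to length and library total, and lengths, also deposited, entered no test. The submitters' processing notes name Bowtie2, BWA and the human build hg19, so no coordinate was taken from the files. No source used here names the quantification tool. Symbols came from the RefSeq table (GRCm38.p6), which matched 18820 of 18872 gene identifiers. Genes not listed in a file were set to 0.

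Rounded counts of all genes went through edgeR 4.0.16 (R 4.3.3): filterByExpr, TMM and the quasi-likelihood test, 2 libraries against 2, two-sided, with no block and Benjamini-Hochberg adjustment. Standard errors were obtained from the size of each log2 fold change and the root of its F. The biological coefficient of variation was 12.9%. The script was tested on simulated data. Alternatives used DESeq2 1.42.0, limma 3.58.1 on log2(FPKM + 1) and log2(FPKM + 0.1), other scalings and filters, a replicate block, only genes whose transcripts match between files, and each library left out. Protein sequences were not used here.

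The members and lists were chosen with earlier results of these data known. All members are accounted for. Values in every library are given for the PERK-ATF4-CHOP genes, the sensors and, in each other role, up to 6 with the smallest p, and other members more briefly, except that Dnajb9, Canx, Sel1l, Derl1, Srp14 and a few others are also given in full. From each wider list up to 4 called genes with the smallest p are named, and Ern2, Atf3, Agr2 and Derl3. Other genes outside the members (Qsox1, Psat1, Mthfd2, Cth, Sesn2, Ddit4 and Bbc3), and the markers, were picked after their values were seen.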

Additional observations from a re-analysis of the deposited data

How the results depend on the processing

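No value of a member or of a called pathway gene changed sign in any of the 13 alternatives. The number of members called was 42 to 47, and that of all genes called ran from 4379 (DESeq2) to 7403 (replicate block). The single member called lower, Ern1, left 0 lower members with no filter and with DESeq2, where 1 was lower at an unadjusted p under 0.05, and 0 to 1 over the fits without a library (0 without wild-type replicate 2 or knockout replicate 1, with 0 and 1 at an unadjusted p under 0.05). The median of the chaperone arm was 1.16 with library totals alone, 1.14 with limma on log2(FPKM + 1), 1.155 with log2(FPKM + 0.1), and 1.15 to 1.36 over the fits without a library, lowest without knockout replicate 1. The median of the PERK-ATF4-CHOP arm was 1.08 with no filter and 0.35 with a mean FPKM of at least 5, and the difference between the arms was 0.19 and 0.84, because Trib3 enters and Chac1 leaves this short list. With the replicate block 46 members were called higher and 1 lower, Sel1l being the addition, and no other member's call changed. Same-numbered libraries deviated together (correlation 0.57 across genes), but the labels give no reason for the numbers to pair libraries, and the files of a number share an annotation. Depth limits Trib3 and Chac1, with 3 to 41 counts per library, and 2 libraries per group limit every p-value.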

Other observations

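The ER stress response element was also matched in genes outside the 51. Of 10 such genes that were tested, 4 rose and 1 fell, with a median log2 fold change of 0.36. The second form, ERSE-II, was matched in 6 further tested genes, of which 2 rose (Lgalsl by 0.83 and Krtcap2 by 0.91), with a median of -0.09. In comparison, genes with none of the 4 motifs searched had 22.6% called higher outside the members. Derl3 and Alg12, a degradation gene and a mannosyltransferase of the ER, rose by 2.04 and 0.63, and so did Spats2l (1.47) and Hnrnpa3 (0.42), which are not known here as ER genes. Xlr3b, at -2.93, fell, and it has a close copy in Xlr3a, so its value is uncertain. These genes are named because they hold the element and passed the test, after their values were seen.

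A further textbook motif, the unfolded protein response element bound by XBP1 and ATF6, was searched as TGACGTGG on both strands. It was matched in 3 of 44 members (6.82%), Txndc5, Txndc11 and Sec24d, and in 193 of 27025 genes (0.714%). Of the 12 COPI retrieval genes with a window, 5 held it: Kdelr3, Arf1, Copb2, Copb1 and Gbf1, with log2 fold changes of 1.60, 0.84, 0.61, 0.25 and 0.02. Copb1 and Gbf1 were not called. Over all 110 tested genes with this motif outside the members, 27.3% were called higher, beside 23.0% of all tested genes. No test was made of these shares.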
